A study of Mus musculus with 3 samples.

Results

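The guanylate-binding proteins described here are the products of 8 mouse genes, Gbp2 to Gbp9, picked by gene symbol from the 55536 annotated genes in the tables, of which 22028 are protein coding. RNA was measured in the chromatin fraction of bone marrow-derived macrophages, primary cells of C57BL/6J mice, that had received lipid A (100 ng/ml) for 15 min. Lipid A anchors lipopolysaccharide in the bacterial outer membrane and is sensed by TLR4, and chromatin RNA includes many transcripts caught before their synthesis or splicing ends. The 3 libraries, replicates 1, 2 and 3, form 1 group, and no library of untreated cells was analysed here, so none of the levels below is a response to lipid A. The labels give no sex or age, carry the same donor entry for all 3 libraries, and list no transgene, deletion or second agent. The spread between the libraries may therefore be smaller than that between animals.

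Guanylate-binding proteins are large GTPases that cells make in quantity in response to interferons, above all interferon gamma. They assemble on the vacuoles of intracellular parasites and on cytosolic bacteria, help to break these open, and bring bacterial lipopolysaccharide to the non-canonical inflammasome. In macrophages their transcription is driven by factors downstream of the interferon receptors, through DNA motifs such as the interferon-stimulated response element (ISRE) and the gamma-activated sequence (GAS).

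The genes lie in 2 clusters in mm10, the mouse build of the tables. On the plus strand of chromosome 3 are Gbp5 (chr3:142493978-142522344), Gbp7 (chr3:142530342-142550149), Gbp3 (chr3:142560026-142573209) and Gbp2 (chr3:142620602-142638008). On the minus strand of chromosome 5 are Gbp8 (chr5:105014150-105139540), Gbp9 (chr5:105077630-105139539), Gbp4 (chr5:105115767-105139586) and Gbp6 (chr5:105270702-105293698). Gbp4, Gbp8 and Gbp9 overlap, and the first exons of 8 of their annotated isoforms, 60 to 107 bases long, share a stretch of 60 bases at chr5:105139480-105139539 and end at the same base. Reads from that stretch alone cannot be placed in a single gene.

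For the 4 chromosome 3 genes, the 250 bases before their starts are shown, from RefSeq (GRCm38.p6, which has the mm10 coordinates). The other 4 members, Gbp4, Gbp6, Gbp8 and Gbp9, had no entry in the promoter table. Capitals mark matches, on either strand, to the ISRE (GAAANNGAAA), the GAS (TTCNNNGAA), the kappaB element (GGGNNTTTCC) or the AP-1 element (TGANTCA). All are on the plus strand of chromosome 3, and for Gbp3 the upstream start of a pair is shown.
Gbp5, chr3:142496684-142496933: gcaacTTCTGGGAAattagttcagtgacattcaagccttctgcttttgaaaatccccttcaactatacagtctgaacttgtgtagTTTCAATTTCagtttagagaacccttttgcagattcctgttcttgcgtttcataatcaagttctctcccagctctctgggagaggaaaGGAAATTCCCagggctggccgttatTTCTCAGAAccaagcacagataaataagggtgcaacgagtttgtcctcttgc
Gbp7, chr3:142530086-142530335: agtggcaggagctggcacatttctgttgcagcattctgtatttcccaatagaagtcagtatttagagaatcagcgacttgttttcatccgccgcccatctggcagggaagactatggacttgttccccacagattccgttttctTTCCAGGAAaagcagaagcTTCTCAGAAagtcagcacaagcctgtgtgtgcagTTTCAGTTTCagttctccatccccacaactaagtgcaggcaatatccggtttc
Gbp3, chr3:142559794-142560043: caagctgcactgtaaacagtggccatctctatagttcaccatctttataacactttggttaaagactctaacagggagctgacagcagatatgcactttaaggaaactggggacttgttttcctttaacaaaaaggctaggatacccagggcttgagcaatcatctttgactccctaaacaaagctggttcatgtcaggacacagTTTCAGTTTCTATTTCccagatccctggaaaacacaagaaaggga
Gbp2, chr3:142620413-142620662: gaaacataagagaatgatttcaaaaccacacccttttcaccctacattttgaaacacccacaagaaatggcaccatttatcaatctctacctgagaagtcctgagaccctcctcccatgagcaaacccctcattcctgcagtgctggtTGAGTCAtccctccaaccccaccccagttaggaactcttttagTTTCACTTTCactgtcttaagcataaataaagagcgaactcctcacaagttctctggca

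An ISRE match was found before a RefSeq start of all 4 of these genes, in 4 of their 5 windows, against 2.98% of the 32851 RefSeq windows of the same length. The matches lay 59 to 50 bases before the start in Gbp2, 53 to 44 in Gbp7, and 165 to 156 in Gbp5. Gbp3 had a pair of overlapping matches, from 45 to 30 bases before its upstream start, and none before its downstream start. The starts of the isoforms measured here can differ from those of RefSeq. Gbp3-202, with 79.6%, 99.5% and 70.6% of Gbp3 in the first of 2 deposited quantifications, begins past both starts, at chr3:142560411. The Gbp2 match lies inside the first exon of the coding isoform Gbp2-201, chr3:142620602-142620808. GAS matches were found before Gbp5 and Gbp7 alone, 2 in each, and 7.02% of all windows held such a match. Gbp5 was the only member of the 4 with a kappaB match (GGAAATTCCC, 77 to 68 bases before the start), a motif in 1.41% of all windows. Gbp2 was the only one with an AP-1 match (TGAGTCA, 102 to 96 bases before the start), a motif in 6.75% of all windows. These are matches of letters in a 250-base window, and no binding was measured. Their part in the levels, or in the spread between libraries, was not tested.

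All 8 genes were detected. Each reached at least 1 TPM (a level per transcript length, relative to the whole library) in all 3 libraries, as did 42.4% of protein-coding genes. The transcripts were also estimated in a separate deposited table, called the second quantification below, where the count was again 8 of 8, beside 53.3% of protein-coding genes. The summed level of the 8 genes was 229 TPM in replicate 1, 51.2 TPM in replicate 2 and 146.5 TPM in replicate 3, or 142 ± 89.1 TPM (SD, n = 3). Libraries held 10974934, 21376404 and 14376665 expected counts in the same order, and protein-coding genes took 23.9%, 16.7% and 25.3% of TPM. Macrophage markers, among them the CSF1 receptor gene Csf1r, reached 1 TPM in every library for 9 of 9 genes, with a summed level of 588 to 1017 TPM. The same count was 0 of 5 for T and NK cell, 0 of 3 for B cell, 0 of 5 for neutrophil, 0 of 3 for dendritic cell and 0 of 2 for endothelial markers. In the gene table none of those 5 lists summed to over 1.74 TPM in a library. The second quantification gave some of these markers higher levels: Cd3d, a T cell receptor subunit, was at 16.7, 11.5 and 20.2 TPM there, against 0, 0.02 and 0 TPM in the gene table. By mean, 2 T and NK cell, 1 neutrophil, 1 dendritic cell and 1 endothelial marker reached 1 TPM in it. The part of such cells in the Gbp levels was not tested. The order of replicates 1, 3 and 2 in the summed Gbp level was also that of the starting RNA in the labels, 1 µg, 500 ng and 250 ng, and the reverse of that of the depth. The part of either in the levels was not tested, and in bulk RNA fewer cells that express a gene and less RNA per cell cannot be told apart.

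**Figure D1:**
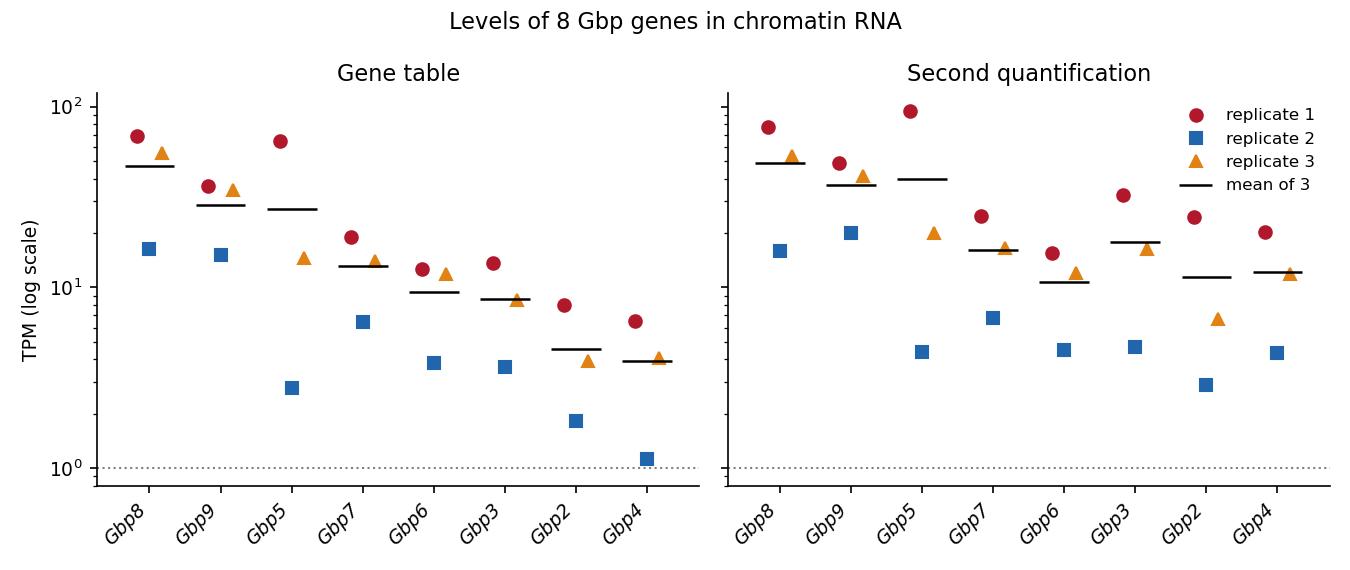
TPM (log scale) of the 8 Gbp genes in replicates 1, 2 and 3, with the mean of 3 libraries as a bar, in the gene table (left) and the second quantification (right); the dotted line marks 1 TPM. Replicate 1 is the highest and replicate 2 the lowest for all 8 genes on both sides, and Gbp5 has the widest gap.

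Gbp5 is known for promoting inflammasome assembly and for acting on cytosolic bacteria. On chromosome 3 it had the highest mean, with 64.2 TPM in replicate 1, 2.77 TPM in replicate 2 and 14.5 TPM in replicate 3 (27.2 ± 32.6 TPM, SD, n = 3). Replicate 1 stood far above the others and replicate 2 far below, a ratio of 23.2 between the extremes, and the expected counts behind the values were 2834, 270 and 712. Gbp7, linked to the oxidative burst of macrophages, was at 19.0, 6.43 and 14.03 TPM (13.2 ± 6.35), from 806 to 1179 expected counts. Gbp3 was at 13.6, 3.65 and 8.56 TPM (8.60 ± 4.97). Gbp2, which coats the vacuole of Toxoplasma, was the lowest of the 4, at 7.98, 1.83 and 3.93 TPM (4.58 ± 3.13), from 250, 132 and 140 expected counts.

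On chromosome 5, Gbp8 had the highest TPM of the whole family in every library of the gene table. It was at 68.7, 16.4 and 55.2 TPM in replicates 1, 2 and 3 (46.7 ± 27.1). Gbp9 followed with 36.5, 15.1 and 34.4 TPM (28.7 ± 11.8), so that replicates 1 and 3 were close and replicate 2 was apart. In expected counts, which are not divided by transcript length, Gbp9 was above Gbp8 in every library. Gbp9 had 2341, 2097 and 2471 expected counts and Gbp8 1862, 1032 and 1674, while Gbp5 had 2834 in replicate 1. Gbp6 was at 12.7, 3.84 and 11.8 TPM (9.43 ± 4.86). Gbp4 had the lowest mean of the 8 in the gene table, with 6.54, 1.12 and 4.09 TPM (3.92 ± 2.71), from 119 to 341 expected counts. Gbp8 took 30.0%, 32.1% and 37.6% of the family's TPM in replicates 1, 2 and 3, while the share of Gbp5 went from 5.41% in replicate 2 to 28.0% in replicate 1.

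A further 3 genes of the family, listed with them but not members, were near 0. Gbp2b, a close relative of Gbp2 on chromosome 3, had 2, 2 and 0 expected counts. Gbp10 had 1.71, 4.34 and 0, and Gbp11, annotated as a polymorphic pseudogene, had 27, 8 and 12.1. Detection therefore split the family into 8 genes at over 1 TPM in every library and 3 at under 1 TPM in every library.

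By mean TPM the order was Gbp8, Gbp9, Gbp5, Gbp7, Gbp6, Gbp3, Gbp2 and Gbp4. Neighbours were called separated where the difference of log2(TPM + 1) had the same sign in 3 of 3 libraries and its mean was above its SD, which held for 3 of the 7 neighbouring pairs. Gbp8 was above Gbp9 by 0.56 ± 0.40, Gbp7 above Gbp6 by 0.47 ± 0.21 and Gbp3 above Gbp2 by 0.79 ± 0.14 (log2 differences, SD, n = 3). The pairs Gbp9 and Gbp5 (0.83 ± 1.48), Gbp5 and Gbp7 (0.26 ± 1.35), Gbp6 and Gbp3 (0.13 ± 0.27), and Gbp2 and Gbp4 (0.21 ± 0.23) did not differ beyond their spread. In no neighbouring pair were the TPM ranges over the libraries free of overlap. Gbp8 ranked 1 by TPM in each library of the gene table, whereas Gbp5 ranked 2, 6 and 3 in replicates 1, 2 and 3. In expected counts the order of Gbp8 and Gbp9 was the reverse, as given above.

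The chromosome 3 genes summed to 105, 14.7 and 41.0 TPM in replicates 1, 2 and 3, and the chromosome 5 genes to 124, 36.5 and 105 TPM. The chromosome 5 sum was the higher in 3 of 3 libraries. In the second quantification it was the higher in replicates 2 and 3 but not in replicate 1, where the chromosome 3 sum was 176 TPM and the chromosome 5 sum 162 TPM. The log2 ratio of the sums, chromosome 3 over chromosome 5, was -0.24, -1.26 and -1.34 (-0.95 ± 0.61, SD, n = 3). Without Gbp5, an alternative chosen after seeing the data, it was -1.59, -1.54 and -1.95 (-1.69 ± 0.23), so that replicate 1 no longer stood apart from replicate 2. With 3 libraries an exact two-sided sign-flip test cannot go below p = 0.25, and none was run.

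The table's own TPM depends on how much of a library lies outside protein-coding genes, so for comparisons between libraries TPM was rescaled to a fixed sum over protein-coding genes. Deviations are log2(scaled TPM + 1) minus the mean of the 3 libraries. All 8 genes were highest in replicate 1 and lowest in replicate 2 on this scale, an order that 29% of the 10251 protein-coding genes with a mean of at least 1 TPM had. The order held for 8 of 8 genes in TPM as deposited, after edgeR's TMM scaling, after DESeq2's size factors and in the second quantification. The genes share libraries, so these are not 8 separate observations. For replicates 1, 2 and 3 the summed level deviated by 0.79, -0.85 and 0.06. Without Gbp5 the deviations were 0.55, -0.70 and 0.15. The median protein-coding gene deviated by -0.01, -0.06 and 0.07.

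Gbp5 varied most, deviating by 2.05, -1.89 and -0.16, with an SD of 1.97 on the log2 scale, against 0.29 for the median protein-coding gene. Only 13 of the 10251 genes had a larger SD. The other 7 members had SDs of 0.39 (Gbp9) to 0.95 (Gbp4), with Gbp8 at 0.80, Gbp2 at 0.78, Gbp3 at 0.67, Gbp6 at 0.63 and Gbp7 at 0.51. The 95th percentile of all genes was 0.72, which Gbp5, Gbp4, Gbp8 and Gbp2 exceeded. On this scale the ratio of the highest to the lowest library was 16.2 for Gbp5.

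**Figure D2:**
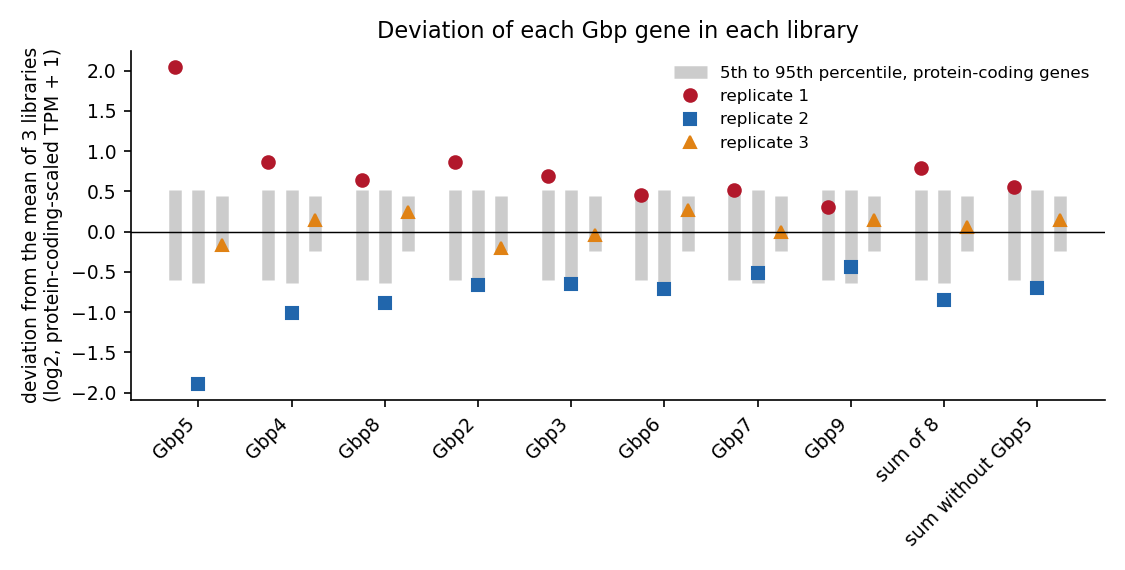
Deviation of each Gbp gene and of their sum from the mean of the 3 libraries (log2 of protein-coding-scaled TPM + 1), 1 point per library; grey bars span the 5th to the 95th percentile of protein-coding genes in that library. Gbp5 reaches 2.05 in replicate 1 and -1.89 in replicate 2, and the sum without Gbp5 has a smaller spread than the sum of 8.

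The annotation lists 33 isoforms of the 8 genes: 19 protein coding, 5 subject to nonsense-mediated decay (NMD, the removal of transcripts with an early stop), 4 processed transcripts without an open reading frame, and 5 that retain introns. Isoforms outside the protein-coding class took 65.0%, 47.3% and 58.0% of the family's TPM in replicates 1, 2 and 3 (56.8% ± 8.92, SD, n = 3). Over all protein-coding genes this share was 52.3% ± 2.64. Retained-intron isoforms took 42.9%, 22.5% and 28.4% of the family's TPM (31.3% ± 10.5), against 41.8%, 36.8% and 39.2% (39.3% ± 2.53) over all protein-coding genes. In expected counts, which are not divided by length, the direction turned: retained-intron isoforms took 39.9% ± 10.5 of the family against 25.1% ± 3.71 of all protein-coding genes. All classes outside the protein-coding one took 57.4% ± 9.95 of the family's expected counts against 32.3% ± 4.05. Isoform levels are the deposited estimates for annotated models, and reads from transcripts still being spliced are divided among whatever models exist.

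**Figure D3:**
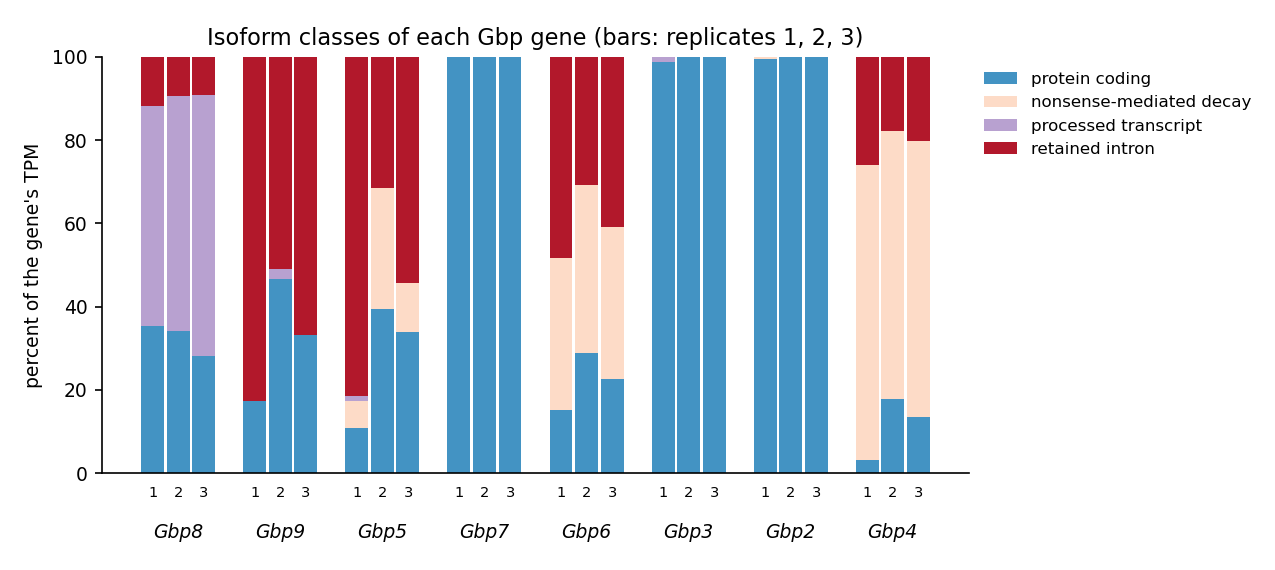
Percent of each gene's TPM taken by each annotated isoform class, with 1 bar for each of replicates 1, 2 and 3. Retained-intron isoforms take 81.5% of Gbp5 in replicate 1 and 31.4% in replicate 2. In this unit a processed transcript takes 52.9% to 62.6% of Gbp8, and Gbp2, Gbp3 and Gbp7 have no annotated retained-intron isoform.

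In the first transcript table Gbp5 and Gbp9 had the highest retained-intron shares. In Gbp5 the share was 81.5%, 31.4% and 54.3% in replicates 1, 2 and 3, and in Gbp9 it was 82.6%, 51.1% and 66.9%. Gbp6 followed with 48.4%, 30.7% and 40.8%, then Gbp4 with 26.0%, 17.9% and 20.3%, and Gbp8 with 11.8%, 9.27% and 9.21%. In 4 of these 5 genes the share was ordered as the levels were, replicate 1 above 3 above 2, and in Gbp8 replicates 2 and 3 were nearly equal. The share over all protein-coding genes, given above, had that order too. The ranking of the genes depended on the quantification: in the second, Gbp6 (58.7% ± 2.76) and Gbp4 (56.0% ± 6.70) were above Gbp9 (45.7% ± 11.2) and Gbp5 (37.9% ± 18.1, SD, n = 3). Gbp4 also changed its order there, with 48.2%, 59.7% and 59.97% in replicates 1, 2 and 3, so that replicate 1 was the lowest.

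The model behind the Gbp5 share is Gbp5-205, whose 2 exons keep 3 of the 10 introns of the coding isoform Gbp5-201, 1813 bases in all. With the parts of other introns at its edges, 2460 of its 3507 bases (70.1%) lie outside the exons of Gbp5-201. Gbp5-205 was at 52.3 TPM in replicate 1, 0.87 TPM in replicate 2 and 7.88 TPM in replicate 3, a 60.1-fold range. The other Gbp5 isoforms together were at 11.9, 1.90 and 6.63 TPM, a 6.26-fold range. The second quantification gave nearly the same levels for Gbp5-205, with 53.1, 0.88 and 7.48 TPM. The other isoforms were higher there, at 41.2, 3.49 and 12.6 TPM, with a wider, 11.8-fold range. After protein-coding scaling and without Gbp5-205, an alternative added after the data were seen, the SD of Gbp5 was 1.02 in place of 1.97. In the second quantification the SD without Gbp5-205 was 1.36. Gbp5 was thus still highest in replicate 1 and lowest in replicate 2 without Gbp5-205.

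In Gbp9 the model is Gbp9-203, which keeps 1 of 10 introns, 662 bases long. Only 663 of its 5043 bases (13.1%) lie outside the exons of the coding isoform Gbp9-201. Most of its sequence is therefore common to both models, and reads from that part do not tell them apart. Gbp9-203 was at 30.1, 7.72 and 23.0 TPM in replicates 1, 2 and 3. The remaining Gbp9 isoforms were at 6.35, 7.40 and 11.4 TPM, so without Gbp9-203 replicate 1 was the lowest library. In the second quantification the remaining isoforms were at 21.5, 13.2 and 21.7 TPM, with replicate 2 the lowest, so the order without Gbp9-203 depended on the quantification. The edges of the retained intron are shown for Gbp9 and for the intron between exons 5 and 6 of Gbp5, since the isoforms that keep these introns differed more between libraries than the rest of each gene's TPM. Each run holds 20 exonic and 60 intronic bases in the direction of transcription, and capitals mark the first and last pair of bases of the intron.
Gbp5, start of the intron, chr3:142503903-142503982, plus strand: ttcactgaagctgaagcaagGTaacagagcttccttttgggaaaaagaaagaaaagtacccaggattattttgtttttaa
Gbp5, end of the intron, chr3:142504192-142504271, plus strand: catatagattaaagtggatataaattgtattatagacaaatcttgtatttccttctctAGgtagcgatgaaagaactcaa
Gbp9, start of the intron, chr5:105083513-105083592, minus strand: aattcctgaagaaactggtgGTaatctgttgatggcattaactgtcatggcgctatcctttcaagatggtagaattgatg
Gbp9, end of the intron, chr5:105082891-105082970, minus strand: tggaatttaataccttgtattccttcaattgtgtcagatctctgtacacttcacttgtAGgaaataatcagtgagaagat

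The Gbp5 intron spans chr3:142503923-142504251, 329 bases, and the Gbp9 intron chr5:105082911-105083572. Both begin with GT and end with AG, the letters at nearly all spliced introns.

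**Figure D4:**
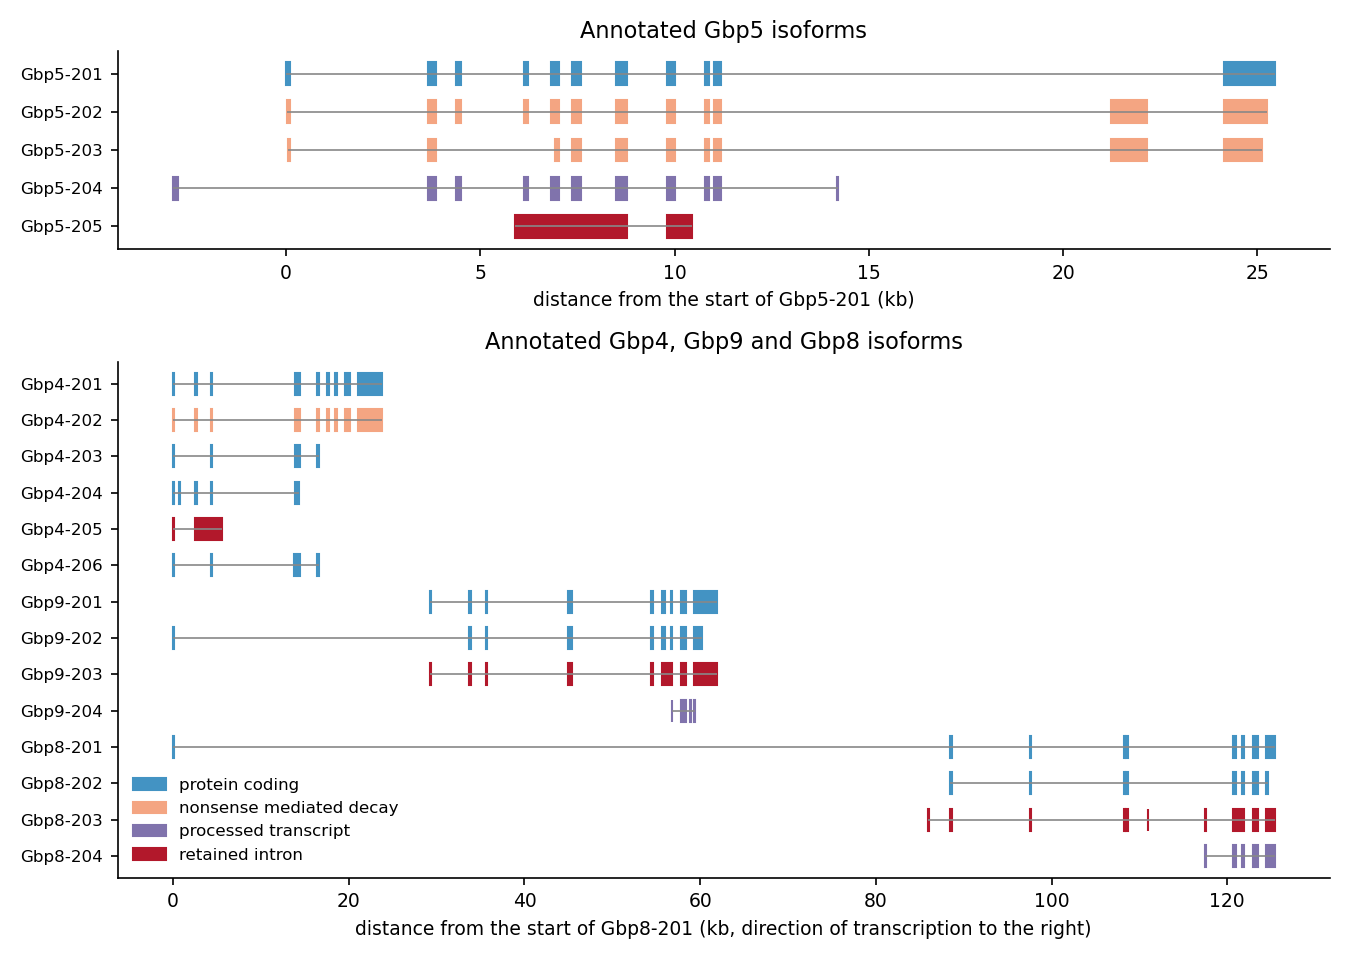
Annotated isoforms of Gbp5 (top) and of Gbp4, Gbp9 and Gbp8 (bottom) as distance in kb from the start of Gbp5-201 or Gbp8-201, with exons as boxes coloured by class. Gbp5-205 joins exons that its coding isoform keeps apart, and isoforms of Gbp4, Gbp9 and Gbp8 have overlapping first exons.

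Gbp8 and Gbp4 were also dominated by models outside the protein-coding class. The processed transcript Gbp8-204, which covers the 3' part of the gene, took 52.9%, 56.6% and 62.6% of Gbp8 TPM. In the second quantification it took 41.0%, 37.5% and 47.3%. Gbp4 is known as a negative regulator of the interferon regulatory factor IRF7. Its full coding isoform Gbp4-201 was listed at 0 counts in all 3 libraries, while the NMD isoform Gbp4-202 was at 4.63, 0.72 and 2.71 TPM. The 2 models differ by 29 bases at the end of exon 2, chr5:105136810-105136838 on the minus strand, which Gbp4-201 holds and Gbp4-202 lacks. The segment is not unique to Gbp4-201: the coding isoform Gbp4-204 and the retained-intron isoform Gbp4-205 hold it too. It is shown in full because it separates Gbp4-201 from Gbp4-202, with no capitals.
Gbp4-201 segment: gtgagtggcacgctgcctaccagccaaag

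The segment begins with gtgagt, so its first bases match the usual start of an intron. Gbp2, Gbp3 and Gbp7 had at most 1.10% of their TPM outside the protein-coding class in the first transcript table. In the second quantification the share was 22.3% ± 4.52 for Gbp2, 5.98% ± 3.53 for Gbp3 and 0 for Gbp7, so for Gbp2 the isoform split depended on the quantification.

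The quantifications differed in how many counts they gave the members. Over whole libraries the second held 1.66 ± 0.0926 times as many counts as the first. For single members the factor went from 1.30 for Gbp8 to 3.29 for Gbp4, with Gbp2 at 2.27. In the second quantification Gbp5 was at 94.3, 4.37 and 20.0 TPM, and Gbp8 at 77.6, 15.9 and 53.1 TPM. Gbp9 was at 48.6, 19.9 and 41.5 TPM there. Gbp5 was therefore above Gbp8 in replicate 1, Gbp9 was above Gbp8 in replicate 2, and Gbp8 was the highest member in replicate 3 alone. The lowest means there were those of Gbp6 (10.7 TPM), Gbp2 (11.4 TPM) and Gbp4 (12.1 TPM). In its order of levels 2 pairs of neighbours were separated, Gbp9 above Gbp3 and Gbp7 above Gbp4.

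How far reads of a member can be told from those of other genes was measured from the annotated transcripts, as the share of a gene's 31-base words that another gene also holds. It was 74.3% for Gbp6, 31.1% for Gbp8, 18.3% for Gbp9, 14.9% for Gbp4 and 14.7% for Gbp7, and it was 5.64% for Gbp3, 4.85% for Gbp2 and 3.10% for Gbp5. Gbp6 shared most of its words with the overlapping gene Gm43302 (67.8%) and with Gbp10 (51.4%), so its level is uncertain in as far as the counting moved reads between them. Gm43302 was given 0, 12.4 and 0 expected counts, beside 648, 425 and 666 for Gbp6. With words of 100 bases the share stayed at 64.5% for Gbp6 and 10.01% for Gbp7, and was 4.39% or less in the other members.

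The pathway around the family was described from 7 lists, in TPM and beside the 42.4% of protein-coding genes detected in all libraries. The ligands were nearly absent: Ifng, the gene of interferon gamma, had 0 counts in all libraries, which allows up to 3 counts in each, and 4 of 6 ligand and receptor genes were detected in all libraries. The receptor genes were Ifnar1 at 39.98 ± 12.1 TPM, Ifnar2 at 39.9 ± 12.4 TPM, Ifngr1 at 32.3 ± 13.4 TPM and Ifngr2 at 9.14 ± 3.45 TPM (SD, n = 3). Ifngr2, the second chain of the interferon gamma receptor, was at 55.5 ± 23.4 TPM in the second quantification. Ifnb1, the gene of interferon beta, was looked up after the values were seen and was at 0.13, 0 and 0.13 TPM.

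Of 11 genes for interferon signalling and transcription factors, 10 were detected in all libraries. Irf1, a transcription factor that binds interferon-stimulated response elements, was at 622 TPM in replicate 1, 79.2 TPM in replicate 2 and 175 TPM in replicate 3. It deviated by 1.45, -0.997 and -0.46 on the scaled log2 scale, so, like Gbp5, it was far higher in replicate 1. Irf2, at 105 ± 26.7 TPM, deviated by only 0.13, -0.09 and -0.04. Stat2 was at 109.7, 93.3 and 139.5 TPM (114 ± 23.5), lowest in replicate 2. On the scaled log2 scale it was lowest in replicate 1, with deviations of -0.18, 0.10 and 0.08. The lowest of the list was Socs1, an inhibitor of JAK kinases, at 0.36 ± 0.06 TPM.

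The immunity-related GTPases (IRG), a second family of interferon-induced GTPases that act with the guanylate-binding proteins on vacuoles, had 5 of 8 genes at 1 TPM or more in all libraries. Irgm1, a regulator of the other family members, was at 16.4, 7.25 and 16.0 TPM in replicates 1, 2 and 3. Iigp1 was at 13.0, 2.74 and 7.59 TPM, and Irgm2 at 4.74 ± 2.47 TPM. The lowest was Tgtp1 at 0.57 ± 0.15 TPM, which has the near-identical copy Tgtp2, so the split between them is uncertain. Of the 8 genes, 3 had the order of replicates 1, 3 and 2 that all 8 Gbp genes had, near the 29% of protein-coding genes with a mean of at least 1 TPM.

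The inflammasome and caspase genes were all detected, 7 of 7, led by the pore-forming Gsdmd (66.4 ± 23.8 TPM), the DNA sensor Aim2 (54.2 ± 19.2) and Nlrp3 (48.2 ± 22.6), with Nlrc4 the lowest at 7.06 ± 0.45 TPM. Genes of the enzymes that attach and process lipid anchors of proteins by prenylation were detected in 5 of 5 cases. They ran from Fntb at 1.72 ± 0.32 TPM to Pggt1b, the beta subunit of a protein prenylation enzyme, at 27.8 ± 10.6 TPM. The genes of ATG8 conjugation, which helps to load guanylate-binding proteins onto vacuoles, were detected in 8 of 8 cases. They ran from Atg5 at 5.01 ± 1.44 TPM to the cargo receptor Sqstm1 at 181 ± 76.8 TPM. By their mean, the 8 Gbp genes, at 3.92 to 46.7 TPM, lay within the range of these lists.

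**Figure D5:**
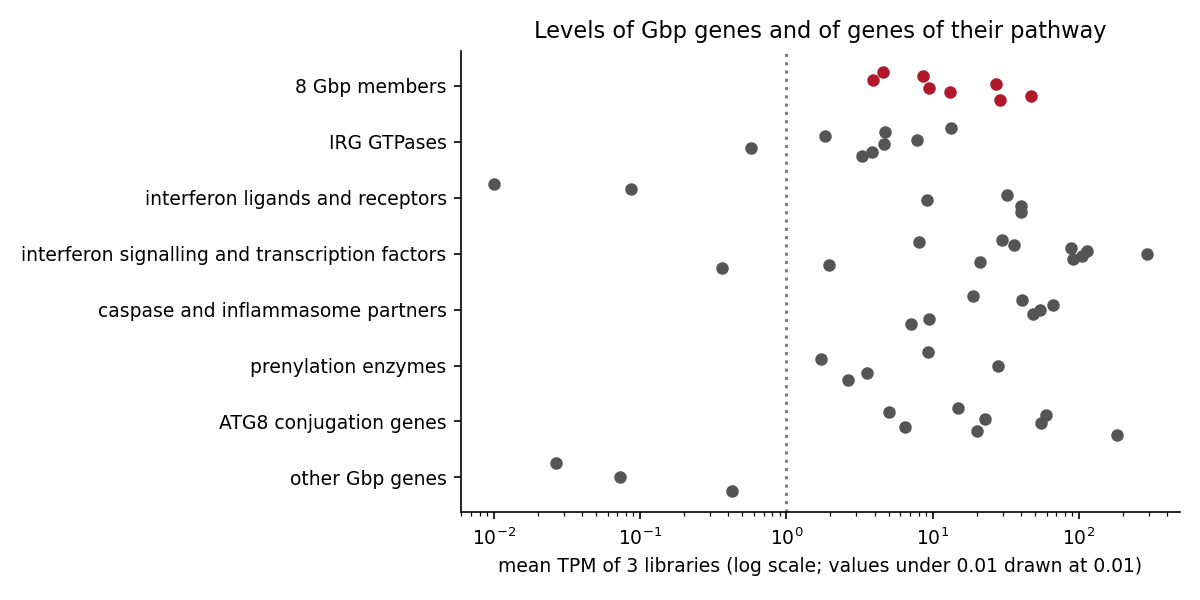
Mean TPM over 3 libraries (log scale) of the 8 Gbp members (red) and of the genes of 7 lists (grey), 1 point per gene; values under 0.01 are drawn at 0.01 and the dotted line marks 1 TPM. Ifng and the 3 other Gbp genes lie under 1 TPM, and Irf1 is the highest point at 292.

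Among 6873 protein-coding genes with a mean of at least 5 TPM, those with a profile over the 3 libraries most like that of the summed Gbp level were Prrg1, Cep85, Creb5, Iigp1 and Cd28. Their Euclidean distances in centred log2 scaled TPM were 0.04 to 0.08, and 17 genes lay within the doubled distance of the fifth. Iigp1 is also on the IRG list, and its deviations were 0.83, -0.83 and 0.00. With 3 libraries a profile has few degrees of freedom, so the likeness is a description of these libraries.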

How the data were processed

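RNA of the chromatin fraction was measured in 3 libraries of 1 group, with replicate numbers from the labels. Per the file headers, the authors deposited expected counts and TPM for genes and, in a companion table, for transcripts, where each isoform also has its percent of the gene's abundance. The second quantification is another deposited table of transcripts with estimated counts and TPM. Assembly mm10 with GENCODE M21 is stated in the submitters' notes. The aligner, counting program, versions and use of strand were not given in the sources used here, so antisense genes may share reads.

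Isoform values used the transcript table, and class shares were computed from its TPM. Protein-coding-scaled TPM sets the sum over protein-coding genes to 1e+06, and the pseudocount was 1. Expected counts were rounded for TMM factors (edgeR 4.0.16) and size factors (DESeq2 1.42.0) in R 4.3.3, without a model or test. Other steps used Python 3.11.15, numpy 2.4.6, pandas 2.3.3 and matplotlib 3.10.9. Depth was 10974934 to 21376404 expected counts, and the 3-count floor covers counting error only. The deviation and likeness steps were tested on simulated data.

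With 1 group, no comparison between conditions was made and no p-value was computed. The members and lists were chosen with earlier results of these data known. By a naming rule, the text may name all 8 members, the 3 highest and the lowest gene of each list, the 5 genes most like the summed level, and neighbouring genes. Csf1r, Cd3d, Ifngr2 and Ifnb1 were added after their values were seen. Alternatives were other scalings, the second quantification, other minimums and pseudocounts, and leaving out each library, with those without Gbp5 or its retained-intron isoform added after seeing the data.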

Additional observations from a re-analysis of the deposited data

How the results depend on the processing

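All 8 members were at or above the detection limit with a minimum of 0.5 TPM, with 10 expected counts, in the second quantification and without any 1 library (8 in each). The summed level of 142 TPM depends on what it is relative to: it was 615 in TPM scaled to protein-coding genes, 522 in CPM with edgeR's TMM and 513 with DESeq2's size factors. Leaving out 1 library gave 98.8 to 188 TPM. The log2 ratio of the chromosome 3 over the chromosome 5 sum was -1.30 to -0.75 without 1 library and -1.69 without Gbp5. The share of isoforms outside the protein-coding class was 52.6% to 61.5% without 1 library. Of 7 neighbouring pairs, 2 to 4 were separated without 1 library, and 0 had ranges that did not overlap. Without its retained-intron isoform the spread of Gbp5 was 1.02 in the first quantification and 1.36 in the second. Of the values recomputed, 50 moved by less than the spread between libraries, or for counts by at most 1.5 times, and 6 by more. No paired analysis was possible because the libraries form 1 group.

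The limits are 3 libraries with 1 donor entry, no untreated library, lowest depth in replicate 1, and isoform estimates that rest on annotated models. Gbp6, Gbp4, Gbp7, Gbp8 and Gbp9 share transcript sequence with each other or with other genes.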

Other observations

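Profiles like that of Gbp5 alone were looked up after its values had been seen. The nearest of the 6873 genes were Tcte3, Clec4e, Bcl2a1d, Socs3 and Tnfsf9, at Euclidean distances of 0.53 to 0.68, further than the 0.04 to 0.08 of the genes nearest to the summed level. Clec4e, a receptor for mycobacterial glycolipid, was at 56.4 TPM in replicate 1, 4.25 TPM in replicate 2 and 18.8 TPM in replicate 3. Socs3, a feedback inhibitor of cytokine signalling, was at 21.5, 1.53 and 8.38 TPM. Tnfsf9, the ligand of 4-1BB, had a wider range than Gbp5, at 40.6, 0.84 and 8.31 TPM. Casp4, the caspase that senses lipopolysaccharide, was also chosen after its values were seen: it was at 69.0, 14.4 and 38.9 TPM, and deviated by 0.88, -0.85 and -0.03. Of the 7 caspase and inflammasome genes, 2 had the order of replicates 1, 3 and 2, beside 29% of protein-coding genes.

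The Gbp9 isoform whose first exon overlaps those of Gbp4 and Gbp8, Gbp9-202, was listed at 0, 0.07 and 0 TPM in the first quantification and at 7.73, 5.47 and 6.11 TPM in the second. The quantifications thus divided the transcripts of this locus differently.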
